A study of Homo sapiens with 6 samples.

Results

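The MYC family and its partner network comprised 10 genes, namely MYC, MYCN, MYCL, MAX, MXD1, MXD3, MXD4, MXI1, MNT and MGA. Their H3K27ac peaks were taken from the 1 peak list of the series, in hg38 coordinates. A peak was counted when it overlapped the gene body in GENCODE version 44 or lay within 200 kb of it. This gave 156 peaks, or 0.507% of the 30784 peaks of the list. Of these, 18 were promoter peaks, meaning that any base lay within 3 kb of any annotated transcript start site of the gene. A further 6 lay elsewhere in the gene bodies, and 132 lay in the flanks. No peak fell into more than 1 of the 10 loci.

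The list came from SU-CCS-1, an established cell line from a human clear cell sarcoma (CCS) that carries the EWSR1::ATF1 (EA1) fusion in every sample. There were 3 chromatin immunoprecipitation (ChIP) samples made with an antibody against H3K27ac, the acetylated histone mark of active promoters and enhancers, and 3 input samples of chromatin that was not immunoprecipitated. All were of the same genotype and carried no labelled treatment or time, so the data hold no comparison between conditions. The list gives positions only, without signal, depth or values per replicate, and a gene without a peak was not called at the authors' cutoff and may still be acetylated.

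MYC proteins are transcription factors that bind the E-box CACGTG as heterodimers with MAX and raise the expression of genes for growth, ribosome production and metabolism. MXD proteins, MXI1 and MNT also pair with MAX at E-boxes but recruit SIN3 corepressors, and MGA brings MAX into a repressive Polycomb complex. MYC is usually expressed in dividing cells, whereas MYCN and MYCL are used in restricted lineages, among them neural crest derivatives for MYCN.

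The 3 MYC paralogs differed from each other at their start sites. A promoter peak was found at 8 of 10 members (80%), and 63.4% of 20033 protein-coding genes had one. MYCN and MYCL had none. MYC had 2, covering 8.10 kb. The common partner MAX had 1 peak of 1.94 kb, and each gene of the repressor side had between 1 and 5. The main start site, that of the transcript which GENCODE marks as MANE Select or canonical, lay within a peak in 6 of 10 members (60%), and in 53.5% of all protein-coding genes. The exceptions were MYCN, MYCL, MXD1 and MGA.

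**Figure D1:**
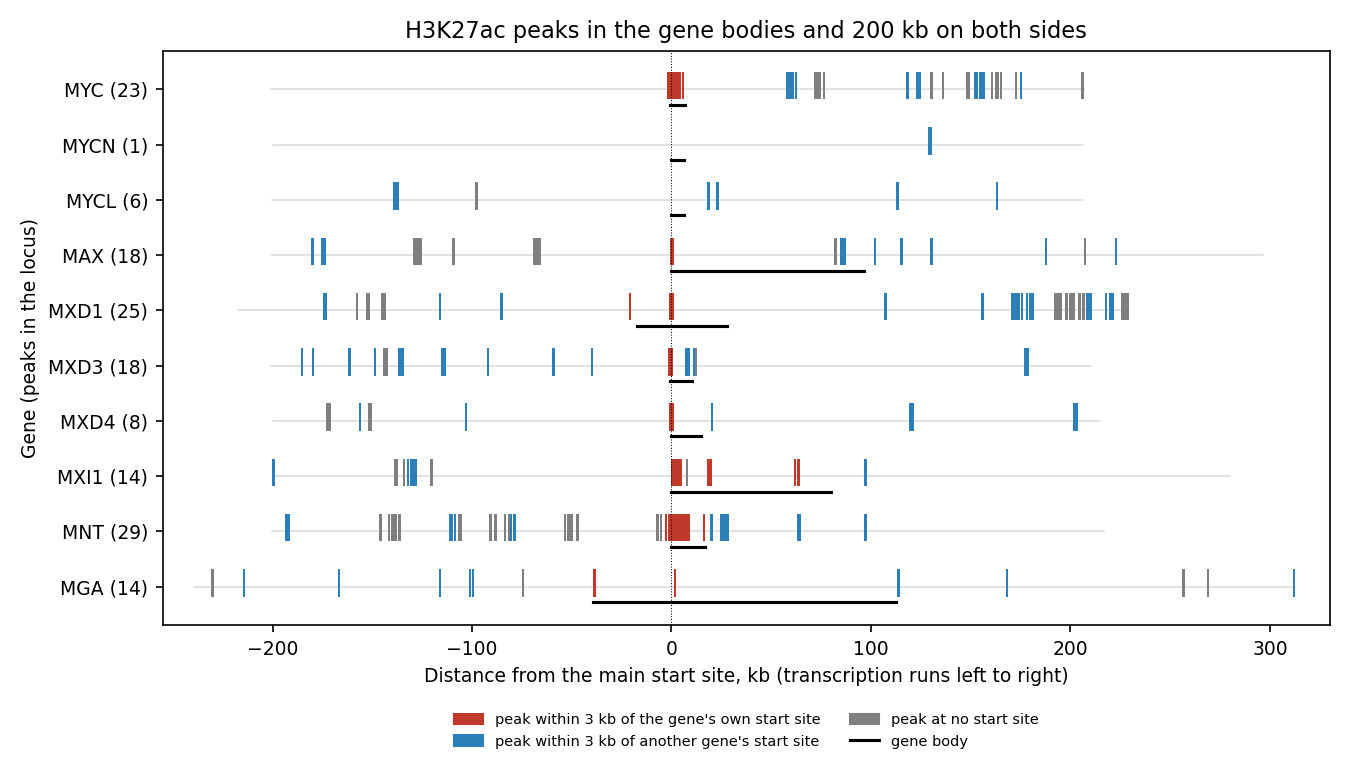
Peaks of the 10 loci by distance from the main start site (x axis, kb, upstream to the left), with 1 row for each gene and its number of peaks in parentheses. Narrow peaks are drawn wider than to scale so that they can be seen. All 21 flanking peaks of MYC lie on its downstream side, and the single MYCN peak lies over 128 kb from the start.

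The promoters of 5 members are shown, 3 because they held an E-box or a motif that the study examined and those of MYCN and MYCL because no peak lay there. Each is the 250 bases before the RefSeq start site (GRCh38.p14, the same sequence as hg38). In the first 3, which lay wholly inside a peak, capitals mark the E-box CACGTG (MNT and MXD4) or the AP1 site TGAGTCA (MXD3). The study reported TGAGTCA as recurrent in EA1 binding sites of mouse tumours and not in those of human CCS cell lines. The first base of the motif lay 193 bases before the start in MNT, 238 bases before it in MXD4 and 79 bases before it in MXD3. For MXD3 this RefSeq start, at 177312752, lies upstream of the main start at 177311898 that is used elsewhere. The AP1 site thus lay farther from that main start. In the last 2, which touched no peak, capitals mark each CG dinucleotide.
MNT promoter, chr17:2401061-2401310, minus strand: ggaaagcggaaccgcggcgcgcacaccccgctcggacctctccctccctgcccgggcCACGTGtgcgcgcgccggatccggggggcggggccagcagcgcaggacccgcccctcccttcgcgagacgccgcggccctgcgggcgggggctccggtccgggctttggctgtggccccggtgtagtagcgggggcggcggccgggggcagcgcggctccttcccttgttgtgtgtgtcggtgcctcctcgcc
MXD4 promoter, chr4:2262110-2262359, minus strand: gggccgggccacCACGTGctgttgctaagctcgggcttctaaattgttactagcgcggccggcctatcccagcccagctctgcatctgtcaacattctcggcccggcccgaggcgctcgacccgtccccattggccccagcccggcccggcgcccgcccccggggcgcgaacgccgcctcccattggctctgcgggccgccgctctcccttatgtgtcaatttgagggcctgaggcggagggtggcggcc
MXD3 promoter, chr5:177312753-177313002, minus strand: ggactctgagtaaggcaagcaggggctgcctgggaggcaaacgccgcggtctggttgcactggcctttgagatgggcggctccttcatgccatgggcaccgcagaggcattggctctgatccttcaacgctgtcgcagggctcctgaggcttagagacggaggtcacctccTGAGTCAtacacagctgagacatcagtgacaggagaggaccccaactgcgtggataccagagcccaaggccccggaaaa
MYCL promoter, chr1:39901918-39902167, minus strand: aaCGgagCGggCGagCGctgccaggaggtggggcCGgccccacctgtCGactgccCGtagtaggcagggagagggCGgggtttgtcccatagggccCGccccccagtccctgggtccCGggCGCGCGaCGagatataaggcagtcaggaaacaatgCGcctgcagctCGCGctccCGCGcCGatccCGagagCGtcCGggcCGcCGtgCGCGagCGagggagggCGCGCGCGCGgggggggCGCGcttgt
MYCN promoter, chr2:15940300-15940549, plus strand: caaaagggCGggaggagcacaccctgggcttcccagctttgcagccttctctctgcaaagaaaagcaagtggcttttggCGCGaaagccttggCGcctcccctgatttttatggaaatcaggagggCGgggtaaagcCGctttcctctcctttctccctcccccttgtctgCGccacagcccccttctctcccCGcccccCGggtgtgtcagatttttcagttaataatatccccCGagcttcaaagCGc

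Of the 3 MYC genes, MYC alone had peaks at the gene. MYC encodes the broadly expressed member of the family and spans 7.52 kb (chromosome 8, 127735434 to 127742951, plus strand). Its first promoter peak measured 7.06 kb (127734151 to 127741210) and reached from 2.08 kb upstream to 4.98 kb downstream of the main start site. It held all 14 annotated start sites of the gene and was the 278th widest of all peaks, with 98.8% of promoter peaks narrower. A second peak of 1.04 kb followed after a short gap (127741421 to 127742460). Together the peaks covered 90.7% of the gene body, a larger share than in 99.0% of protein-coding genes, for which the median was 1.45%. MYC is short, and short genes reach high shares with a single wide peak. Both peaks also lay within 3 kb of a start site of CASC11, a noncoding gene that overlaps this promoter, and the list cannot assign them to either gene.

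MYCN and MYCL lacked a peak anywhere in the gene body. MYCN, the paralog amplified in neuroblastoma, spans 6.46 kb (chromosome 2, 15940550 to 15947007, plus strand). Its locus held 1 peak in all, of 2.25 kb, which began 128 kb downstream of the start at the noncoding gene GACAT3 (16068951 to 16071200). At most 1 peak in such a window was found for 11.4% of protein-coding genes. MYCL, the paralog first described in small cell lung cancer, spans 6.83 kb (chromosome 1, 39895428 to 39902256, minus strand). Its locus held 6 peaks, more than 37.0% of genes, and the nearest lay 17.9 kb downstream at TRIT1. In that locus 5 of 6 peaks stood at start sites of other genes, including PPIE, BMP8B and CAP1.

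The promoters of MYCN and MYCL differed in CG content. The window from 250 bases before to 50 bases after the start held 43 CG dinucleotides at MYCL, more than 93.6% of 21613 RefSeq promoter windows of protein-coding genes (median 21). It held 14 at MYCN, more than 35.7% of them. Among windows with at least as many as MYCL, 82.5% overlapped a peak, and among those with at least as many as MYCN, 76.1% did. The MYCN class held 13894 of the 21613 windows, most of them richer in CG than MYCN, so its share does not describe windows like that of MYCN. The MYCL promoter printed above is thus rich in CG and overlapped no peak, unlike most windows of its class.

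**Figure D2:**
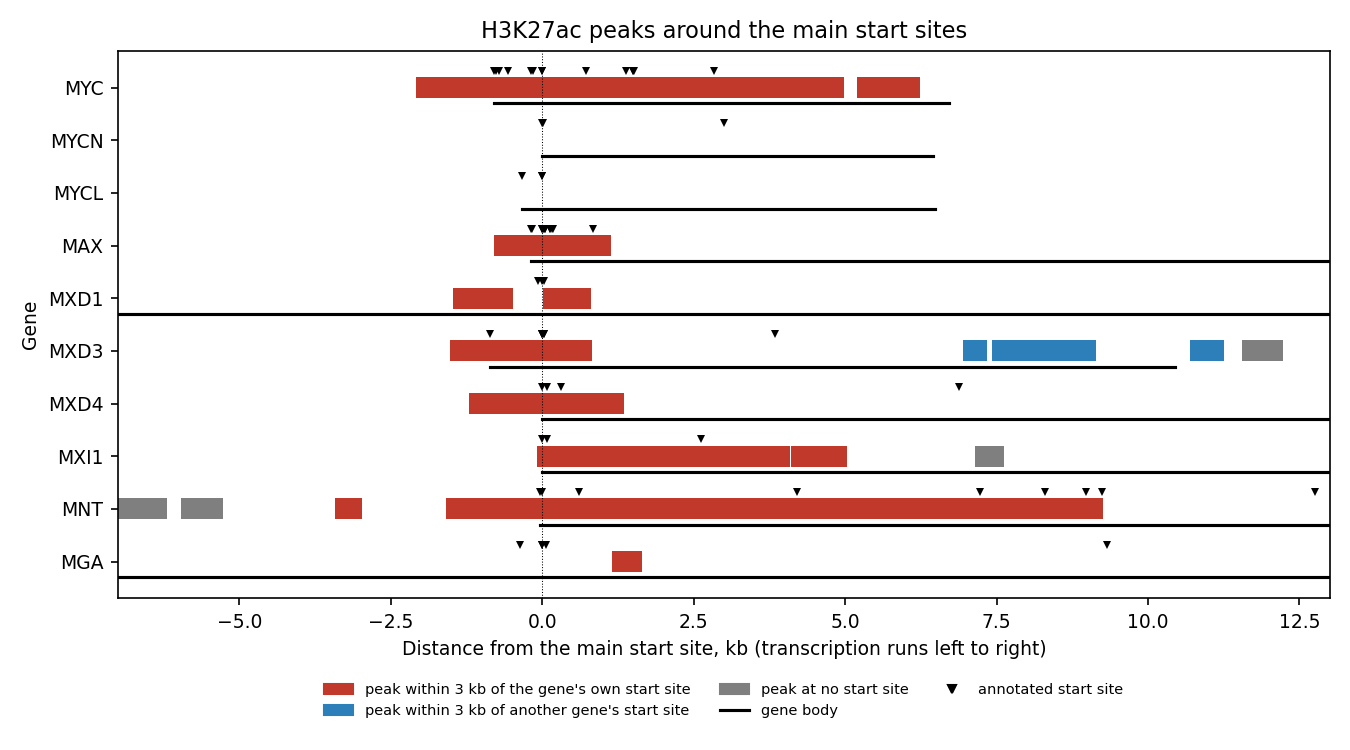
Peaks (bars), gene bodies (black lines) and annotated start sites (triangles) from 7 kb before to 13 kb after the main start site, for each gene. The MYC and MNT start sites lie in peaks that run 4.98 and 9.26 kb into the gene, the MXD1 start lies between 2 peaks, and MYCN and MYCL have no bar.

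MAX, the obligate partner of every MYC and MXD protein, had 1 promoter peak. The gene spans 96.5 kb (chromosome 14, 65006174 to 65102695, minus strand). The peak of 1.94 kb (65101381 to 65103320) reached 0.803 kb upstream and 1.14 kb downstream of the main start and held all 14 start sites. It was wider than 74.9% of promoter peaks. Of the genes with a promoter peak, 55.9% had a smaller sum, and the median sum was 1760 bases. MAX also contained 3 intragenic peaks near its 3' end, 81.7 to 87.5 kb from the start. FNTB, a farnesyltransferase subunit gene, overlaps MAX there, and 2 of the 3 lay within 3 kb of an FNTB start site.

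MNT had the widest promoter peak of the network. MNT is a large MAX-binding repressor that is expressed in most cells, and it spans 17032 bases (chromosome 17, 2384073 to 2401104, minus strand). Its main peak measured 10.85 kb (2391801 to 2402650), ranked 78th among all 30784 peaks, and ran from 1.59 kb upstream to 9.26 kb downstream of the start. With 2 narrower peaks of 1.02 and 0.44 kb the promoter peaks summed to 12.3 kb, more than in 98.7% of genes with a promoter peak. Peaks covered 60.6% of the gene body, a larger share than in 97.9% of protein-coding genes. Of the 9 start sites of MNT, 8 lay inside a peak.

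MXI1 followed MNT in summed promoter width. MXI1 encodes a MAX-binding repressor with several alternative first exons and spans 79.8 kb (chromosome 10, 110207605 to 110287365, plus strand). It had 5 promoter peaks with a sum of 8.91 kb, more than in 97.3% of genes with a promoter peak. The widest, of 4.17 kb (110207521 to 110211690), began 84 bases before the main start and ran 4.08 kb into the gene. Another of 2.33 kb (110225471 to 110227800) covered a separate RefSeq start at 110225996. In all, 34 of the 37 annotated start sites lay in a peak. MXI1 has more annotated start sites than the other members, which widens the stretch that counts as promoter.

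The MXD genes had narrower peaks. MXD3, an MXD protein linked to dividing cells, spans 11.3 kb (chromosome 5, 177301461 to 177312757, minus strand) and had 1 promoter peak of 2.35 kb (177311071 to 177313420) that held 7 of its 8 start sites. MXD4, found mainly in differentiating cells, spans 14.7 kb (chromosome 4, 2247432 to 2262109, minus strand) and had 1 of 2.55 kb (2260761 to 2263310) that held 3 of its 4. These widths exceeded the sums of 66.7% and 70.5% of genes with a promoter peak. MXD3 also had 2 peaks in its gene body, both within 3 kb of the start sites of the neighbours PRELID1 and RAB24.

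MXD1 and MGA differed from the rest in where their peaks lay. MXD1, an antagonist of MYC that rises during differentiation, spans 45.3 kb (chromosome 2, 69897688 to 69942945, plus strand). It had 2 peaks of 990 and 790 bases on either side of its main start at 69915109. The start lay in the gap of 500 bases between them, 12 bases before the second peak, and 1 of 5 start sites lay inside a peak. The remaining peak of 1.32 kb counted as a promoter peak through an upstream start site of MXD1 and also stood at the start of SNRNP27. With the midpoint of the peak in place of any overlap it dropped out, and the sum for MXD1 fell from 3100 to 1780 bases. MGA, the longest gene of the network at 152.0 kb (chromosome 15, 41621134 to 41773081, plus strand), had a peak of 1.51 kb at its upstream start sites (41620871 to 41622380). The canonical start at 41660405 was in no peak, and a peak of 510 bases began 1.15 kb downstream of it (41661551 to 41662060). Thus 4 of 15 start sites lay in a peak, and all 4 were in the upstream group.

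**Figure D3:**
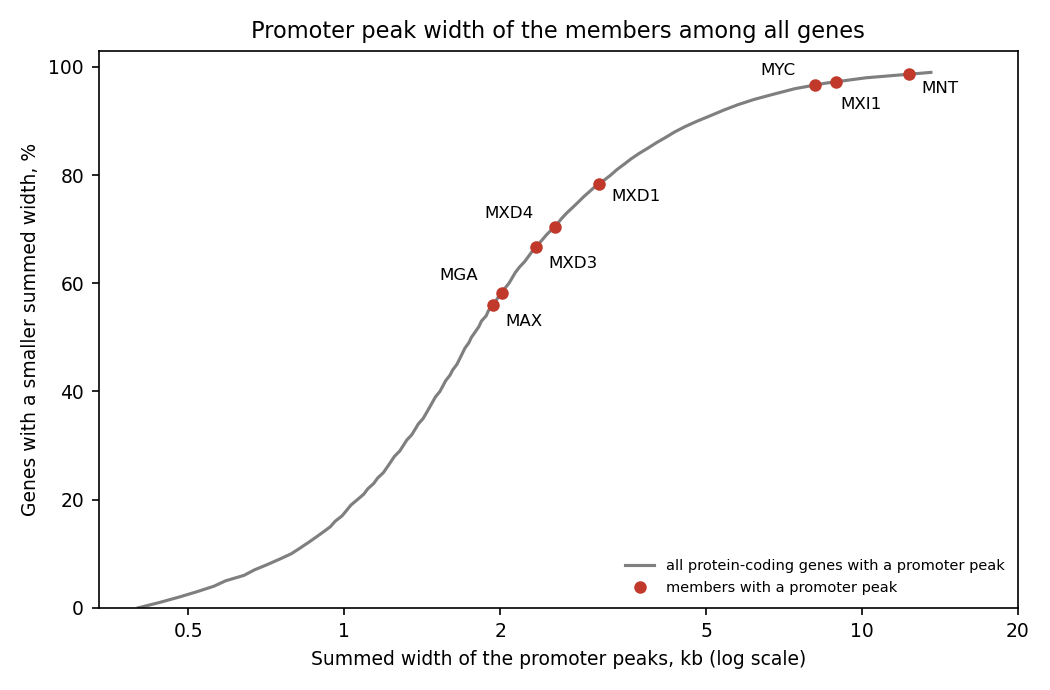
Summed width of the promoter peaks of each gene (x axis, kb, log scale) against the share of protein-coding genes with a promoter peak that have a smaller sum (y axis, %). The line shows those 12701 genes up to the 99th percentile and the points show 8 members, of which MYC, MXI1 and MNT stand above 96.6, 97.3 and 98.7% of these genes and MAX above 55.9%.

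Beyond the promoters, gene bodies held 6 distal peaks in 3 of 10 members (30%), namely MAX, MXD3 and MXI1, and 17.9% of protein-coding genes had at least 1. Of the 6, 4 stood at start sites of overlapping or neighbouring genes. MXI1 had 1 of 470 bases, 7.15 kb from the start. The count depends on the promoter definition. It was 10 with a promoter window of 1 kb and 3 with one of 5 kb.

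Flanking peaks were unequal between the loci and between the sides of a gene. They numbered 26 at MNT, 22 at MXD1, 21 at MYC, 15 at MXD3, 14 at MAX, 12 at MGA, 8 at MXI1, 7 at MXD4, 6 at MYCL and 1 at MYCN. The start sites of other genes accounted for 73 of the 132, and the other 59 lay at none. The locus of MNT held 29 peaks, more than 96.1% of protein-coding genes, that of MXD1 held 25 (93.3%) and that of MYC held 23 (91.0%), where the median gene had 8.

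At MYC the flanking peaks were all on 1 side. There were 21 within 200 kb downstream and 0 upstream. Of the 2033 protein-coding genes with at least 20 flanking peaks, 0.59% had none upstream. The limit of 20 lies just below the count of MYC, and genes with none downstream were not counted. The share therefore does not measure how rare a flank with peaks on 1 side is. The nearest upstream peak began 896 kb from the main start. All 21 downstream peaks lay in the body of PVT1, a long noncoding RNA gene of 393 kb whose promoter is known to limit the use of the enhancers inside it by MYC in some cell types (127794526 to 128187101, plus strand). They covered 22.4 kb. The widest, of 3.67 kb, held the outermost PVT1 start site, 58.3 kb from the MYC start. The next widest measured 3.19 kb and 2.83 kb and lay 154 and 122 kb from the MYC start. PVT1 has 132 annotated start sites, so 8 of the 21 counted as lying at a start site and 13 did not. Which of these peaks act on MYC was not tested, since the list holds no contacts.

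**Figure D4:**
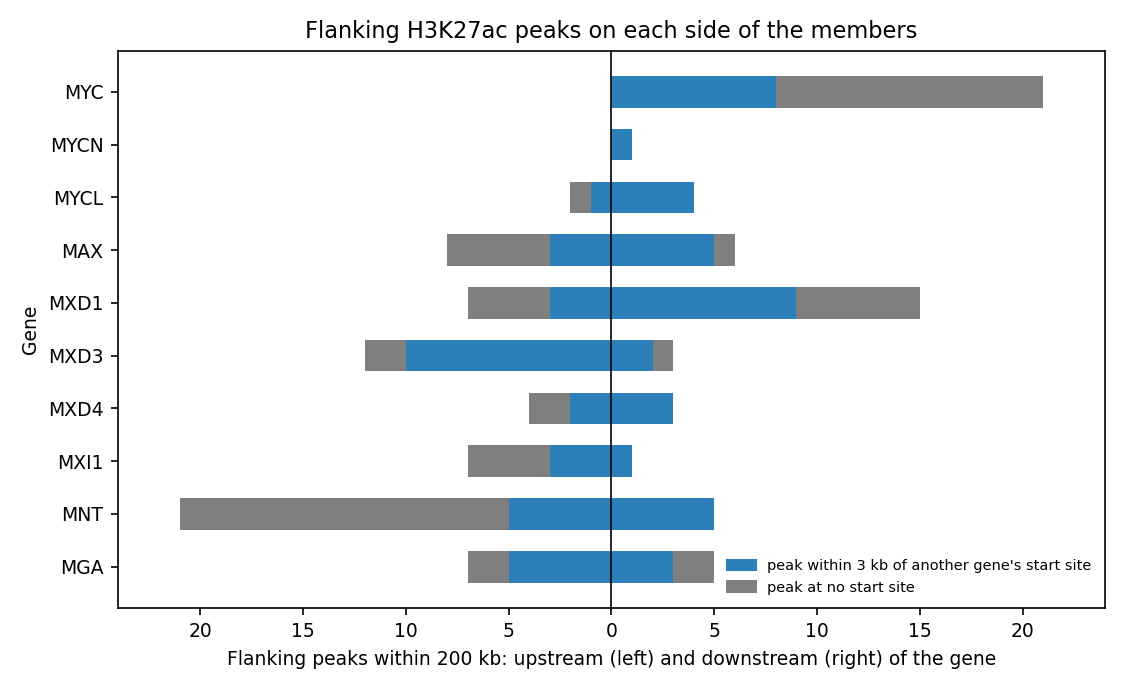
Number of flanking peaks within 200 kb upstream (bars to the left) and downstream (bars to the right) of each gene, split into those within 3 kb of the start site of another gene and those at no start site. MYC has 0 upstream and 21 downstream, and MNT has 21 upstream and 5 downstream.

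MNT showed the opposite arrangement, with 21 upstream and 5 downstream peaks. In its upstream flank 16 peaks lay in METTL16, the gene of an RNA methyltransferase, with a summed width of 14.8 kb. All 5 downstream peaks stood at start sites of other genes, among them SGSM2. Upstream of MXI1, all 7 peaks lay in ADD3 (9.63 kb in sum). MXD1 had 15 peaks downstream, of which 13 began between 170 and 225 kb from its start, around PCBP1, a gene for an RNA-binding protein, and LINC01816. Of the 15, 7 lay in no gene (16.5 kb in sum).

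Stitched regions put MNT and MYC among the widest acetylated stretches. Peaks were joined at the stitching distance usual for super-enhancers and ranked by summed peak width, and regions were counted as wide when they lay past the point where the scaled ranked curve reaches a slope of 1. This held for 879 of 17049 regions. MNT and MYC had such a region (2 of 10 members, 20%, where 7.67% of protein-coding genes did). The MNT region joined 8 peaks over 36.97 kb (2371981 to 2408950), with a summed width of 20.56 kb and rank 133. Besides the MNT promoter peaks it took in peaks at start sites of SGSM2 and peaks in METTL16. The MYC region consisted of its 2 promoter peaks, with 8.10 kb and rank 861, and lay just inside the limit of 7.99 kb. MXI1 lay just outside with 7.89 kb and rank 903. Ranked by span, MXI1 was inside (rank 934 of 973 counted) and MYC was outside (rank 3060). With joining distances of 5 and 3 kb it was again MYC and MNT. Without those peaks that reach no further than 2.5 kb from some start site, MNT remained inside (rank 194 of 460 counted) and MYC was outside (rank 537). The other regions ranked 1497 (MXD3), 3922 (MAX), 4596 (MXD4), 7298 (MXD1) and 8805 (MGA). For each gene the highest-ranked region that touched it was taken. At MAX this was the region of the intragenic peaks in FNTB (65014971 to 65020850), away from the promoter peak. The MXD3 region (177299671 to 177313420) took in the peaks at the start sites of PRELID1 and RAB24. PVT1 had a separate region of rank 270.

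The E-box was counted to describe the sequence under these peaks. CACGTG is its own reverse complement, so both strands were covered by 1 search. Of the 18 promoter peaks, 8 held at least 1 (44.4%), and 24.5% of all 18856 peaks at start sites did. The density was 38.8 per 100 kb in the member peaks and 21 in all peaks at start sites. The member peaks had a mean GC content of 60.0% and all peaks at start sites 57.4%. Every member with a promoter peak except MYC had at least 1 E-box there. This counts genes over all their promoter peaks, whereas the 24.5% counts single peaks. The share of all genes was not counted, so the E-box cannot be called particular to the members. MGA had 6, MAX and MNT had 3 each, and MXD1, MXD3, MXD4 and MXI1 had 1 each. Per kb of promoter peak this was 2.97 at MGA, 1.55 at MAX and 0.244 at MNT. The first MYC peak held 0 in 7.06 kb, and 14.3% of the 224 start-site peaks at least as wide held none. Away from start sites, 17 of the 61 peaks of the loci held an E-box (27.9%, with 14.1% of all such peaks), and their mean GC content was 51% against 48.8%.

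The E-boxes of the narrower MGA peak are printed because they were closely packed. The MGA peak of 510 bases held 3, between 1.24 and 1.57 kb downstream of the canonical start. In all, 1.79% of peaks at start sites held 3 or more, and among those no wider than this MGA peak, 0.243% did. The limits of number and width were taken from this peak, so the shares do not measure how unusual it is. Capitals mark CACGTG.
MGA E-box nearest the canonical start, chr15:41661631-41661660, plus strand: cgccggagcaaaCACGTGgatcatgagaag
MGA middle E-box, chr15:41661906-41661935, plus strand: tccggccggcggCACGTGatctgtcgggac
MGA E-box farthest from the canonical start, chr15:41661959-41661988, plus strand: gcggcattttttCACGTGgttcttggccag

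**Figure D5:**
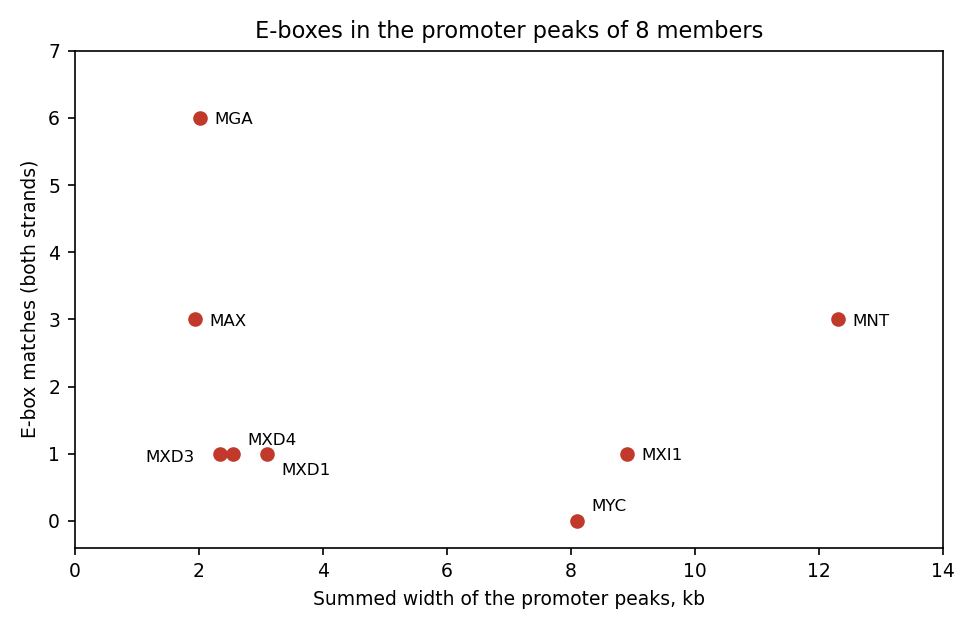
Number of CACGTG matches in the promoter peaks of 8 members (y axis) against the summed width of those peaks (x axis, kb). MGA has 6 in 2.02 kb and MYC has 0 in 8.10 kb.

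In the shorter promoter windows of 300 bases, MNT and MXD4 held CACGTG, 2 of the 9 members with a RefSeq entry, and MYC was not analysed here. The motif was found in 8.35% of the 21613 windows and in at least 1 window of 10.9% of the 15345 genes they belong to. With 500 bases on both sides of the start, 5 of the 9 held it, namely MAX, MXD3, MXD4, MNT and MGA, and so did 21.4% of the 15345 genes. Of the 9, MXD3 alone held TGAGTCA in the windows of 300 bases, and 4.03% of the 21613 windows did. A match shows the letters and not binding.

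The study examined the ATF/CREB site TGACGTCA because EA1 keeps the DNA-binding domain of ATF1. It was found once in each of 2 promoter peaks, those of MXI1 and MNT (11.1% of 18, with 3.59% of all peaks at start sites). The density was 4.84 per 100 kb in the member peaks, from 2 matches, and 2.38 in all peaks at start sites. Both lay inside the gene, 3.71 kb downstream of the main start in MXI1 and 7.17 kb in MNT. In MXI1 another annotated start site lies between, 2626 bases downstream of the main start. The MNT match lay just upstream of another annotated MNT start site, which is 7230 bases downstream of the main start. The peaks at the starts of PVT1, downstream of MYC, and PAFAH1B1, upstream of MNT, held 1 each as well. Of the 61 peaks of the loci that lay at no start site, 3 held 4 matches between them (4.92%, with 0.981% of all such peaks). They lay in PRR7 upstream of MXD3, in METTL16 upstream of MNT and in no gene downstream of MXD1. The AP1 site TGAGTCA, read on both strands, was found in 4 of the 18 promoter peaks (22.2%, with 16.5% of all peaks at start sites), but its density of 12.1 per 100 kb was below the 13.4 of all such peaks. The flexible form TGANNTCA, which includes TGACGTCA, was found in 10 (55.6%, with 37.8%), again at a lower density, 33.9 per 100 kb in the member peaks and 38.7 in all. The 2 promoter matches of TGACGTCA are shown in capitals.
MXI1 ATF/CREB site, chr10:110211304-110211333, plus strand: ccagcctcttcTGACGTCAcgcgttgctgg
MNT ATF/CREB site, chr17:2393874-2393903, plus strand: gggagccccgcTGACGTCAgccgggccatg

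Proteins that act with the network mostly had a promoter peak. Over 6 lists, which include the classical target genes of MYC described below, the count was 49 of 52 (94.2%). This stands beside the 63.4% of all protein-coding genes given above. All 10 coactivators and partners of MYC, all 6 corepressors used by MXD proteins and MNT, all 9 partners of MGA in its Polycomb complex and all 8 genes of MYC protein turnover had one. Most of these genes are active in many cell types, and the lists were not compared with others of that kind. RUVBL2, a subunit of chromatin remodelling complexes that bind MYC, had the widest sum at 13.9 kb, more than in 99.1% of genes with a promoter peak. SIN3A, the scaffold of the corepressor that MXD proteins recruit, had 6.46 kb, and HCFC1, a MYC-binding cofactor, had 5.80 kb. In the MLX arm, which senses glucose through a parallel set of E-box factors, MLX (1.92 kb) and MLXIP (1.78 kb) had a promoter peak and MLXIPL had none. Of the 52 genes, 5 had a stitched region past the slope-1 point, a share close to the 7.67% of all protein-coding genes. Among the 5 were MLXIP (rank 169), MLX (rank 184) and RUVBL2 (rank 570). Such a region can include peaks of neighbouring genes.

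Among classical target genes of MYC, 14 of 16 had a promoter peak (87.5%, with 63.4% of all protein-coding genes). Their median sum was 2745 bases, and that of all genes with a promoter peak was 1760. ODC1, the first enzyme of polyamine synthesis, had 6.70 kb, and LDHA, the lactate dehydrogenase subunit, had 5.21 kb. These 2 of the 16 also had a stitched region past the slope-1 point, where 7.67% of all protein-coding genes did. TERT, the telomerase catalytic subunit, and CCND2, a D-type cyclin, had no promoter peak. Among noncoding and neighbouring genes, CASC11, PVT1 and DDX1 had a promoter peak, and MYCNOS, MYCNUT, MYCL-AS1, POU5F1B and CASC8 had none. The peaks of CASC11 are the same 2 as those of MYC. The share of all noncoding genes with a promoter peak was not counted. MYCNOS and MYCL-AS1 are antisense partners of MYCN and MYCL.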

How the data were processed

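SU-CCS-1 cells were profiled by H3K27ac ChIP-seq, with 3 ChIP and 3 input samples grouped by their titles. Per the study's methods and the submitters' processing notes, reads were aligned to hg38 with BWA-MEM 0.7.10-r789, duplicates were removed, and broad peaks were called with MACS2 2.2.6 against input and filtered for denylisted regions. The deposited file used here is 1 merged list of positions by the authors, without signal or depth, so no value has a replicate error and no test between samples was made. Reads were not analysed here. Peak width depends on the calling and joining rules.

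Positions were turned to counting from 1 and intersected with GENCODE version 44 and hg38 using Python 3.11.15, numpy 2.4.6 and pysam 0.24.0. Interval code was checked on made-up peaks. Percentages of genes with a lower value count 20033 protein-coding genes, or, for summed promoter peak width, the 12701 of them with a promoter peak. Promoter sequences were RefSeq entries, which gave 21613 windows for 15345 of these genes. The widest 50% of peaks were those above 1060 bases and the widest 25% those above 1760 bases. The text names all members, the genes of the pathway lists and the genes at or near a described peak. CCAT1 was not matched. Members, lists and rules were chosen with earlier results of these data known. The sequences of the MAX promoter peak are not reported here.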

Additional observations from a re-analysis of the deposited data

How the results depend on the processing

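Of 34 alternatives over 9 results, 20 stayed within 1.5 times the value reported and 14 moved further. The 8 members with a promoter peak stayed 8 under 5 of 6 alternatives, and 6 remained with the widest 25% of peaks, without MXD1 and MGA. With the widest 50% and 25% of peaks, 48.6% and 26.5% of protein-coding genes had a promoter peak. Distal intragenic peaks numbered 10 with a promoter window of 1 kb or with protein-coding transcripts alone, 3 with 5 kb, 2 with the widest 50% of peaks and 0 with the widest 25%. Peaks in the 10 loci numbered 73, 263 and 419 with flanks of 100 kb, 500 kb and 1 Mb, and 66 and 38 with the widest 50% and 25% of peaks. Flanking peaks numbered 49 and 239 with flanks of 100 and 500 kb. With peaks near start sites left out, 1 member, MNT, had a stitched region past the slope-1 point. Ranking by span kept the count at 2 members, but with MXI1 in place of MYC. With 500 bases on both sides of the start, 5 of 9 members held CACGTG, and 21.4% of genes did. These settings change the bases or peaks counted by construction. The use of RefSeq start sites was chosen after seeing the data.

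No paired analysis was possible because the 1 list used here has no column per replicate. No replicate was left out for the same reason. The list gives no depth, so the reliability of narrow peaks such as the 510 bases at MGA was not tested.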

Other observations

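Wider windows changed the standing of some loci. Within 1 Mb of the gene, MYC had 4 peaks upstream and 32 downstream, and all 32 lay in PVT1, the last of them 382 kb from the MYC start. Its total of 38 exceeded that of 55.2% of protein-coding genes, where its 23 peaks within 200 kb had exceeded 91.0%. MYCN had 9 peaks within 1 Mb, more than 8.57% of genes, and the median gene had 34. MYCL had 43, more than 62.9%, and MXI1 had 20, more than 27.5%. At 100 kb, MNT had 21 peaks, more than 97.8% of genes, and MYCN had 0.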
